A study of Mus musculus with 7 samples.

Results

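The genes described here are 10 markers used to tell subgroups of medulloblastoma (MB) apart: Otx2, Crx, Nrl, Rcvrn, Impg2, Gabra5, Npr3, Eomes, Gfi1 and Gfi1b. They were chosen by symbol, and all 10 were found among the 34592 rows of the deposited counts. Bulk RNA was sequenced from 7 mouse Group 3 (G3) tumors, 4 labelled WDR11 overexpression (WDR11OE) and 3 controls, to compare tumors with and without enforced expression of human WDR11. All 7 came from tumorspheres of 1 line. That line came from granule neuron progenitors of postnatal Trp53-/-;Cdkn2c-/- mice, into which an MSCV retrovirus had carried Myc and GFP. The tumorspheres were then infected with a pCDH lentivirus in which the EF1 promoter drives human WDR11 together with copGFP, or, by the study's methods, with the same vector without WDR11, whereas the treatment label of the controls is "none". The cortex of CD1-nu/nu hosts received the infected cells unsorted. These mice lack a thymus and so most T cells but keep other host cells. By the protocol labels, RNA was taken from chunks of tumor once the mice were moribund. The source label of the controls and the study's abstract name tumorspheres instead. If chunks were sequenced, each can hold uninfected tumor cells and host brain. Total counts lay between 33417175 and 41397427 in the controls. They were 42252257, 85371523, 32116095 and 87141305 in the libraries labelled WDR11OE replicates 1 to 4. The libraries of the groups carry names from separate number series, so an effect of how libraries were run and an effect of group cannot be told apart.

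The overexpressed gene was looked at first, as a check of the labels. A row for human WDR11 was at 2.03, 2.19 and 3.13 CPM (counts scaled to a common library size with TMM factors) in control replicates 1, 2 and 3. In the libraries labelled WDR11OE replicates 1, 2, 3 and 4 it was at 4.38, 2.11, 3.05 and 0.624 CPM. Only the library labelled WDR11OE replicate 1 was above every control, and the library labelled WDR11OE replicate 4 was below every control. Differences below are log2 fold changes, tumors labelled WDR11OE over controls, ± the standard error of the edgeR quasi-likelihood fit, whose p-values were adjusted by Benjamini and Hochberg's method. For human WDR11 the hWDR11 row differed by 0.05 ± 0.58 (edgeR adjusted p = 0.961). The sign of hWDR11 turned without control replicate 1 (−0.08) or 2 (−0.03) and without the library labelled WDR11OE replicate 1 (−0.37) or 3 (−0.05). With no tumor left out, the sign of hWDR11 turned by limma-voom (−0.44), with no filter on low counts (−0.005) and with the libraries labelled WDR11OE replicates 1 and 2 summed (−0.18). How reads were assigned to this row is not given in the sources used here, and the controls also had counts in it. Mouse Wdr11 was at 58.8, 58.3 and 59.3 CPM in the controls and at 66.8, 61.0, 65.6 and 68.9 CPM in the tumors labelled WDR11OE (log2 fold change 0.16 ± 0.06, edgeR adjusted p = 0.0910). Wdr11 was called with upper quartile scaling (0.19, edgeR adjusted p = 0.0454), and with the trend on GC content removed its sign turned (−0.02). By themselves these counts do not show which tumors carried the transgene, so each tumor is called by its label, and every direction below is one between labels. The paper reports more WDR11 transcript by quantitative PCR in tumors with enforced expression. It also reports the protein by immunofluorescence in tumorspheres from secondary tumors. Its text gives no such value for each sequenced tumor. Myc, the driver of the model, was at 812 to 1108 CPM in the controls and 278 to 431 CPM in the tumors labelled WDR11OE (log2 fold change −1.40 ± 0.20, edgeR adjusted p = 0.00227). Trp53, which the model lacks, was still at 45.0 to 53.8 CPM in the controls and 27.8 to 35.6 CPM in the tumors labelled WDR11OE, and was lower in them (−0.56 ± 0.11, edgeR adjusted p = 0.00762). Cdkn2c, lacking as well, was at 15.5 to 17.4 CPM and 15.2 to 26.8 CPM (0.42 ± 0.20, edgeR adjusted p = 0.162), and without the library labelled WDR11OE replicate 4 it was called (0.56, edgeR adjusted p = 0.0242). Counts were summed over whole genes, so they would include reads from parts outside a deletion and from any host cells. What part either had in these levels was not tested.

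MB is divided into WNT, SHH, Group 3 and Group 4 subgroups. Human Group 3 tumors often express genes of the photoreceptor program, in which the homeodomain proteins OTX2 and CRX and the leucine zipper protein NRL switch on genes of rods and cones, although no photoreceptors exist in the cerebellum. Other subgroup markers come from different programs: EOMES marks unipolar brush cell precursors of the rhombic lip and other glutamatergic precursors, and GFI1 and GFI1B are zinc finger repressors that become active in some tumors when their genes are moved next to strong enhancers.

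Over the 10 markers, 5 passed the filter on low counts and were tested (Impg2, Gabra5, Npr3, Eomes and Gfi1), while Otx2, Crx, Nrl, Rcvrn and Gfi1b did not pass it and have no fold change. Of the 5 tested, 0 were called lower and 0 higher by edgeR (adjusted p under 0.05), where 33.9% of all 17389 genes tested were called, 15.8% lower and 18.1% higher. At an unadjusted p under 0.05 the count was also 0 by edgeR, by limma-voom and by DESeq2. Groups overlapped for the 5 tested markers, whereas 42.7% of all genes tested had no overlap. They overlapped for the other 5 as well, which had few counts.

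The 3 photoreceptor transcription factors were at the edge of detection. Otx2 (ENSMUSG00000021848), on the minus strand of chromosome 14 of NCBIM37 from 49277354 to 49287319, had 11, 5 and 3 counts in control replicates 1, 2 and 3 and 3, 9, 4 and 20 counts in the libraries labelled WDR11OE replicates 1, 2, 3 and 4. Scaled to depth, this was 0.306, 0.119 and 0.0919 CPM against 0.0710, 0.112, 0.123 and 0.219 CPM. The highest value was in a control, the next in the deepest library, and the groups overlapped (two-sided exact permutation test, p = 0.600). Crx (ENSMUSG00000041578), on chromosome 7 from 16451296 to 16465317, had 1, 0 and 1 counts in the controls and 0, 0, 1 and 1 counts in the tumors labelled WDR11OE. Nrl (ENSMUSG00000040632), on chromosome 14 from 56137815 to 56143818, had 0, 1 and 0 counts against 0, 1, 1 and 9. No tumor had more than 1 count of Crx, and 9 of the 12 Nrl counts came from the library labelled WDR11OE replicate 4. A level of 3 counts corresponds to 0.0328 CPM in the deepest library and 0.0924 CPM in the shallowest, so differences of Crx and Nrl between the groups were not detectable at this depth. In these bulk samples, fewer cells that express a gene and less RNA per cell cannot be told apart.

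Genes that work with these factors were measured as a list of 14 photoreceptor regulators, of which 8 were tested, 1 was lower and 1 was higher, with a median log2 fold change of −0.03 beside 0.09 over all genes tested. Mef2d, a MADS-box factor that acts with CRX in photoreceptors and is also active in neurons and muscle, was at 79.5, 57.4 and 57.7 CPM in the controls and at 21.7, 23.6, 35.02 and 36.7 CPM in the tumors labelled WDR11OE. Every tumor labelled WDR11OE was below every control, and Mef2d had a log2 fold change of −1.15 ± 0.22 (edgeR adjusted p = 0.00740). Prdm1, a repressor that holds photoreceptor precursors away from the bipolar cell fate, was at 3.89 to 5.92 CPM in the controls and 8.40 to 10.5 CPM in the tumors labelled WDR11OE. Its log2 fold change was 0.83 ± 0.19 (edgeR adjusted p = 0.0149), and without the library labelled WDR11OE replicate 2 it was 0.77 (edgeR adjusted p = 0.0519). Pax6, also among the most abundant regulators, was at 17.2 to 31.1 CPM and the groups overlapped.

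Rcvrn and Impg2 belong to the photoreceptor cell itself. Rcvrn (ENSMUSG00000020907) encodes recoverin, a calcium sensor of photoreceptors, and lies on chromosome 11 from 67508828 to 67516835. It had 3, 8 and 0 counts in the controls and 3, 8, 5 and 14 counts in the tumors labelled WDR11OE, or 0.0833, 0.191 and 0 CPM against 0.0710, 0.0998, 0.154 and 0.153 CPM. The highest and the lowest tumor were both controls (two-sided exact permutation test, p = 0.571). Rcvrn lies within Glp2r, which is on the opposite strand and had 209 counts in all tumors. Whether their exons overlap was not examined, and the strand setting of the counting is not given in the sources used here. Whether reads of the pair were kept apart is therefore not known.

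Impg2 (ENSMUSG00000035270), a proteoglycan of the matrix between photoreceptors, lies on chromosome 16 from 56204426 to 56273869. It was at 1.33, 0.882 and 0.582 CPM in the controls and at 0.829, 0.611, 1.39 and 1.42 CPM in the tumors labelled WDR11OE. The groups covered nearly the same range, and the difference between them was smaller than the spread within either (log2 fold change 0.18 ± 0.42, edgeR adjusted p = 0.774; two-sided exact permutation test, p = 0.686). Its sign turned without control replicate 3 (−0.06), without the library labelled WDR11OE replicate 4 (−0.005) and with the trend on GC content removed (−0.17).

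**Figure D1:**
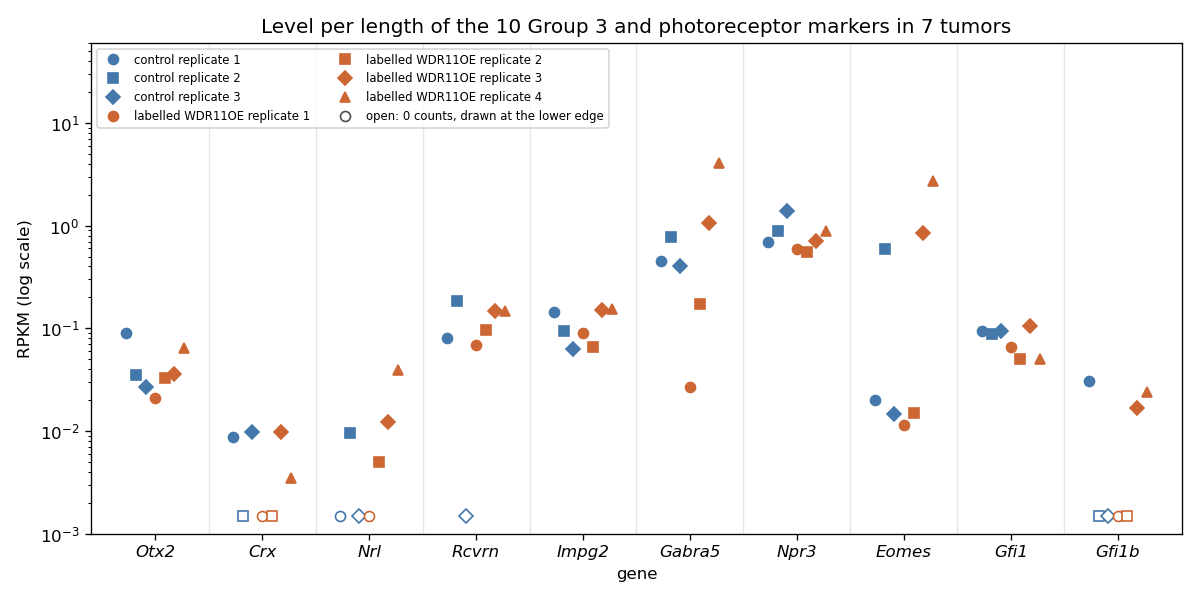
RPKM (CPM per kilobase of exon, log scale) of each of the 10 markers, with 1 point per tumor, blue for the 3 controls and orange for the 4 tumors labelled WDR11OE; open symbols at the lower edge are tumors with 0 counts. Crx, Nrl and Gfi1b stayed at or below 0.0393 RPKM in every tumor, and Gabra5 and Eomes were spread over the widest range.

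The wider machinery of light detection was covered by a list of 49 genes of phototransduction and photoreceptor structure. Of these, 37 were below 1 CPM in every tumor, 24 were tested, 2 were lower and 2 were higher, and the median log2 fold change was 0.52 beside 0.09 over all genes tested. The summed level of the list was 308, 320.5 and 333 CPM in the controls and 213, 215, 232 and 238 CPM in the tumors labelled WDR11OE, and most of it was Gnb1. Gnb1, a G protein beta subunit used by rods and by most other cells, was lower, at 267 to 289.7 CPM against 171 to 196 CPM (log2 fold change −0.59 ± 0.08, edgeR adjusted p = 0.00166). The other calls were lost with fewer tumors. Unc119, a lipid-binding carrier, was lower (log2 fold change −0.57, edgeR adjusted p = 0.0207), and its call was lost without control replicate 2 (−0.53) or 3 (−0.54), without the library labelled WDR11OE replicate 1 (−0.62) or 2 (−0.61), with both of these libraries summed (−0.61) and with the GC trend removed (−0.29). The cone transducin subunits Gnat2 and Gngt2 were higher (log2 fold changes 0.81 and 0.66, adjusted p = 0.0362 and 0.0415 by edgeR). The call of Gnat2 was lost without any 1 tumor other than the library labelled WDR11OE replicate 4 (0.65 to 0.95 over all 7), and that of Gngt2 without any 1 of the 7 (0.58 to 0.72). Both Gnat2 and Gngt2 also lost their calls with no filter on low counts (0.75 and 0.60) and with the libraries labelled WDR11OE replicates 1 and 2 summed (0.71 and 0.61). Gnat2 did so with the GC trend removed (0.68) and Gngt2 with scaling by library size only (0.66). Pde6d, also among the most abundant genes, was at 9.52 to 14.5 CPM and was not called.

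Of the genes that define retinal photoreceptors, 6 of 7 were below 1 CPM in every tumor. The 7 defining genes summed to 3.75, 2.67 and 3.49 CPM in the controls and 4.95, 4.80, 3.51 and 4.54 CPM in the tumors labelled WDR11OE, and the most abundant of them was Sag, the rod arrestin, at 2.19 to 4.52 CPM. Opn1sw, Gnat1, Pde6b and Arr3 did not pass 0.150 CPM in any tumor. Rbp3 had counts in control replicate 1 only. Of the 7, 2 were tested and 0 were called by edgeR, and the median log2 fold change of those 2 was 0.53. In the recoverin family, calcium sensors of neurons, 6 of 6 genes were tested, 1 was lower and 0 were higher, with a median of −0.86. The lower one was Hpcal1, at 7.94 to 9.01 CPM in the controls and 4.42 to 5.95 CPM in the tumors labelled WDR11OE (log2 fold change −0.77 ± 0.16, edgeR adjusted p = 0.0101). The most abundant was Ncs1, at 60.4 to 96.3 CPM, followed by Ncald at 31.0 to 45.3 CPM. Hpca, Hpcal4 and Vsnl1 were lowest in the library labelled WDR11OE replicate 1 and highest in control replicate 1.

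Gabra5 and Npr3 are the membrane receptors among the markers. Gabra5 (ENSMUSG00000055078) encodes the alpha 5 subunit of the GABA-A receptor, a chloride channel opened by GABA, and lies on chromosome 7 from 64663060 to 64765379. It was at 1.19, 2.05 and 1.07 CPM in control replicates 1, 2 and 3 and at 0.0710, 0.461, 2.80 and 10.9 CPM in the libraries labelled WDR11OE replicates 1, 2, 3 and 4. The tumors labelled WDR11OE lay on both sides of the controls, with 2 below and 2 above all of them. Their highest value was 153 times their lowest, but the lowest rested on 3 counts, so this fold is not exact. The log2 fold change was 1.31 ± 1.33 (edgeR adjusted p = 0.497; two-sided exact permutation test, p = 0.886). The sign of Gabra5 turned without the library labelled WDR11OE replicate 4 (−0.41) and, with all tumors kept, by limma-voom (−0.21).

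Summed, the other subunits of the GABA-A receptor shared the order of Gabra5 within the tumors labelled WDR11OE but not within the controls. Of 18 subunits other than Gabra5, 12 were tested and 0 were called lower or higher by edgeR, and the median log2 fold change was 0.60. Their summed level was 91.8, 40.4 and 23.3 CPM in the controls and 9.54, 12.6, 63.0 and 193.5 CPM in the libraries labelled WDR11OE replicates 1 to 4. Gabrb2, one of the most abundant subunits, was at 20.3, 5.55 and 4.72 CPM in the controls and at 1.25, 1.56, 11.6 and 32.7 CPM in the tumors labelled WDR11OE. Like the sum, it was lowest in the library labelled WDR11OE replicate 1 and highest in the library labelled WDR11OE replicate 4.

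Npr3 (ENSMUSG00000022206) encodes the clearance receptor that takes up natriuretic peptides, and lies on chromosome 15 from 11769651 to 11835429. It was at 4.94, 6.27 and 9.83 CPM in the controls and at 4.14, 3.92, 5.02 and 6.30 CPM in the tumors labelled WDR11OE. The lowest 2 tumors were labelled WDR11OE and the highest was a control, and the groups overlapped between them (log2 fold change −0.53 ± 0.28, edgeR adjusted p = 0.195; two-sided exact permutation test, p = 0.200). In the list of 6 natriuretic peptides and other receptors, 2 were tested and 0 were called, and the median log2 fold change was 0.55. Of those 2, Npr2 was at 9.01 to 21.3 CPM and Npr1 at 1.40 to 8.63 CPM. Nppa, Nppb, Nppc and Corin stayed below 1 CPM, the highest being Nppa at 0.613 CPM in the library labelled WDR11OE replicate 4.

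Eomes (ENSMUSG00000032446), a T-box factor, lies on the plus strand of chromosome 9 from 118387330 to 118395250 and was the most uneven of the markers. It had 3, 104 and 2 counts in control replicates 1, 2 and 3 and 2, 5, 115 and 1030 counts in the libraries labelled WDR11OE replicates 1, 2, 3 and 4. Scaled to depth, this was 0.0833, 2.48 and 0.0613 CPM against 0.0473, 0.0624, 3.54 and 11.3 CPM. So 4 tumors, from both groups, had next to none, and 1 control and 2 tumors labelled WDR11OE had clear levels, the highest 11.3 CPM. The lowest value rested on 2 counts, below a level of 3 counts, so no exact fold between highest and lowest is given. The log2 fold change was 2.08 ± 1.95 (edgeR adjusted p = 0.462; two-sided exact permutation test, p = 0.629), and without control replicate 2 it was 5.64 (edgeR adjusted p = 0.189). Without the library labelled WDR11OE replicate 3 or 4, Eomes did not pass the filter and has no fold change.

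Genes of unipolar brush cells and the rhombic lip did not all share this order of tumors. Of the 9 genes listed, 8 were tested, 1 was lower and 1 was higher, and the median log2 fold change was 0.21. Calb2, which encodes calretinin and marks unipolar brush cells and many interneurons, was at 0.611, 6.27 and 0.123 CPM in the controls and at 0.0710, 0.0873, 10.01 and 41.1 CPM in the tumors labelled WDR11OE, high in the same 3 tumors as Eomes. Lmx1a, a factor of the rhombic lip, was at 1.67, 0.834 and 0.950 CPM in the controls and at 0.402, 0.287, 0.493 and 0.197 CPM in the tumors labelled WDR11OE. Lmx1a was lower in every tumor labelled WDR11OE (log2 fold change −1.76 ± 0.41, edgeR adjusted p = 0.0148) and had its lowest value where Eomes was highest. Wls, a carrier of secreted WNT proteins and the most abundant gene of the list, was higher (log2 fold change 0.32, edgeR adjusted p = 0.0145), but its call was lost without control replicate 2 (0.28), without the library labelled WDR11OE replicate 1 or 2 (0.25 each), with no filter on low counts (0.27), with both of these libraries summed (0.25) and with the GC trend removed (0.005). Plcb4 was at 14.2 to 34.2 CPM and was not called.

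Among 14 other T-box genes, 9 were tested, 3 were lower and 2 were higher, with a median log2 fold change of −0.34. Tbx18 was at 8.58, 11.97 and 12.7 CPM in the controls and at 3.57, 4.40, 3.17 and 4.02 CPM in the tumors labelled WDR11OE (log2 fold change −1.55 ± 0.20, edgeR adjusted p = 0.00161). Tbx15 was lower too (log2 fold change −1.10 ± 0.23, edgeR adjusted p = 0.00953), and both kept their calls in all 15 alternatives. Tbx1 (log2 fold change −0.94) was the other lower gene and Tbx4 (1.04) and Mga (0.37) the higher ones, all by edgeR. Each of these 3 calls was lost when certain tumors were left out in turn. Of the fits with a tumor left out, Tbx1 kept its call only without the library labelled WDR11OE replicate 4, over a range of −1.09 to −0.73. Tbx4 did so only without control replicate 3, over a range of 0.83 to 1.34, and Mga lost its call without the library labelled WDR11OE replicate 1 (0.31) or 2 (0.34). With the libraries labelled WDR11OE replicates 1 and 2 summed, the calls of Tbx1 (−1.03), Tbx4 (1.001) and Mga (0.32) were lost. Those of Tbx1 (−0.53) and Mga (0.05) were also lost with the GC trend removed, and that of Tbx4 by DESeq2 (1.004) and with no filter on low counts (0.98). Mga was the most abundant T-box gene, at 298.5 to 409.5 CPM. Tbx21, a T-box factor of lymphocytes and olfactory bulb projection neurons, was named after its values were seen. It was at 0, 0.405 and 0.0306 CPM in the controls and at 0, 0.0249, 1.26 and 6.29 CPM in the tumors labelled WDR11OE, the same 3 tumors again being high.

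Because of Tbx21, a list of 7 genes of olfactory bulb neurons was set after these values had been seen, and it has no test as a list. All 7 were tested gene by gene, 0 were called by edgeR, and the median log2 fold change was 1.39. Their summed level was 55.1, 54.6 and 40.3 CPM in the controls and 32.4, 41.4, 95.7 and 263.7 CPM in the libraries labelled WDR11OE replicates 1 to 4, and the most abundant gene was Reln. Cdhr1 was at 0.306, 7.25 and 0.184 CPM against 0.118, 0.150, 12.8 and 51.2 CPM, and Sp8 at 0.167, 2.62 and 0.0613 CPM against 0.0237, 0.0499, 4.53 and 15.99 CPM. Both were high where Eomes was high, in control replicate 2 and the libraries labelled WDR11OE replicates 3 and 4. Th was at 2.05, 2.53 and 5.44 CPM in those 3 tumors and at most 0.153 CPM in the other 4. Doc2g, Reln and Dlx2 were detected in all 7 tumors. The summed level of the list did not follow Eomes within the controls. It was 55.1 CPM in control replicate 1 and 54.6 CPM in control replicate 2, where Eomes was at 0.0833 and 2.48 CPM.

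Mature neuron markers had another order. The 8 genes of that list summed to 452, 117.5 and 63.0 CPM in the controls and to 11.2, 27.0, 146 and 468 CPM in the tumors labelled WDR11OE, 8 were tested and 0 were called by edgeR, and the median log2 fold change was 0.03. The most abundant was Snap25, at 83.8, 28.6 and 9.04 CPM against 1.28, 4.76, 38.5 and 141 CPM. Control replicate 1 was as high as the library labelled WDR11OE replicate 4 in this sum, while its Eomes was at 0.0833 CPM. None of the 8 defining markers was at 0 in all tumors. What part neurons of the host brain had in the levels of Eomes and Gabra5 was not tested.

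**Figure D2:**
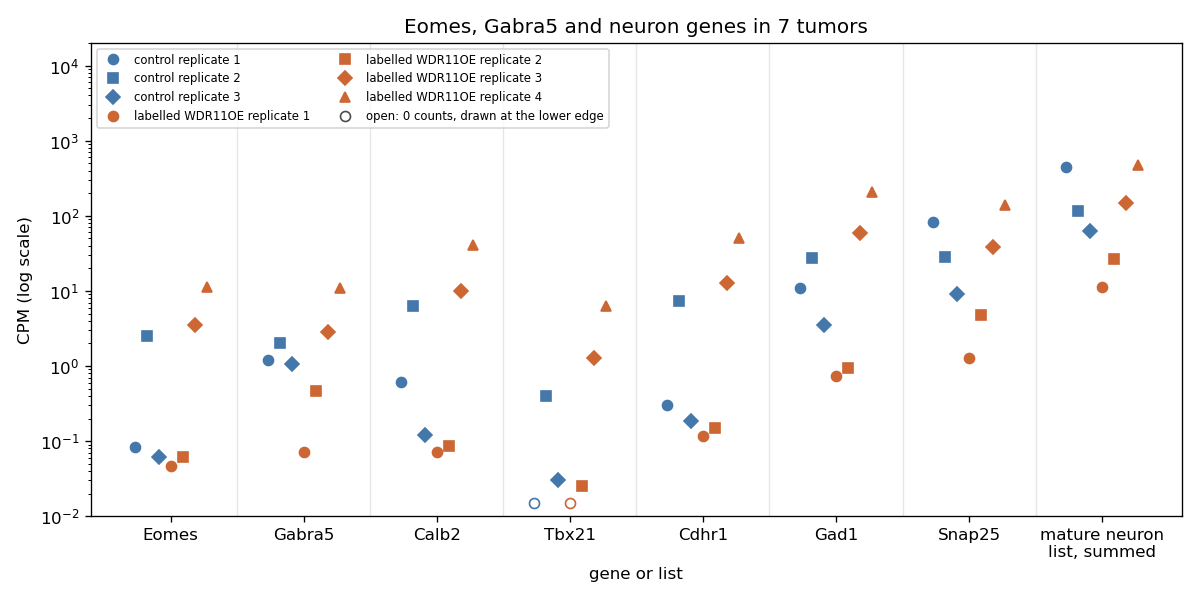
CPM (log scale) of Eomes, Gabra5 and 5 neuron genes and the summed CPM of the 8 mature neuron markers, with 1 point per tumor, blue for the 3 controls and orange for the 4 tumors labelled WDR11OE; open symbols are tumors with 0 counts. Eomes, Calb2, Tbx21 and Cdhr1 were high in control replicate 2 and the libraries labelled WDR11OE replicates 3 and 4, while Snap25 and the neuron sum were also high in control replicate 1.

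Gfi1 and Gfi1b were low in both groups. Gfi1 (ENSMUSG00000029275), on chromosome 5 from 108145674 to 108155056, had 11, 12 and 10 counts in the controls and 9, 13, 11 and 15 counts in the tumors labelled WDR11OE. This was 0.306, 0.286 and 0.306 CPM against 0.213, 0.162, 0.339 and 0.164 CPM. The controls lay close together and within the range of the tumors labelled WDR11OE, and the difference did not pass the test (log2 fold change −0.49 ± 0.36, edgeR adjusted p = 0.351; two-sided exact permutation test, p = 0.171). Gfi1b (ENSMUSG00000026815), on chromosome 2 from 28464970 to 28477502, had 2, 0 and 0 counts against 0, 0, 1 and 4. With 7 counts in all, a difference of Gfi1b was not detectable at this depth.

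GFI1 and GFI1B silence genes through corepressors, whose transcripts were measured as a list. Of 9 corepressor genes, 9 were tested, 3 were lower and 1 was higher, with a median log2 fold change of −0.33. Kdm1a, the histone demethylase LSD1 that both factors recruit, was at 124, 126 and 152 CPM in the controls and at 124, 120.1, 115 and 103 CPM in the tumors labelled WDR11OE, and was not called. Rcor1, its partner CoREST, was at 79.1 to 83.1 CPM in the controls and 47.8 to 59.5 CPM in the tumors labelled WDR11OE (log2 fold change −0.54 ± 0.09, edgeR adjusted p = 0.00394). Hmg20b was also lower (log2 fold change −0.68, edgeR adjusted p = 0.00385), though with the GC trend removed its adjusted p was 0.0603 by edgeR. Hdac2, the most abundant of the list, was higher (log2 fold change 0.42, edgeR adjusted p = 0.0184). Its call was lost without control replicate 1 (0.34) or 2 (0.40), without the library labelled WDR11OE replicate 1 (0.37) or 2 (0.33), with no filter on low counts (0.37), with the libraries labelled WDR11OE replicates 1 and 2 summed (0.36) and with the GC trend removed (0.07). Phf21a, named after its values were seen, was the third lower gene. Rcor2 was at 48.1 to 93.8 CPM and was not called.

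Levels of different genes were compared per length, as RPKM. By the mean over all 7 tumors the order was Gabra5 (mean 0.997 RPKM), Npr3 (0.817 RPKM), Eomes (0.603 RPKM), Impg2 (0.109 RPKM), Rcvrn (0.103 RPKM), Gfi1 (0.0781 RPKM), Otx2 (0.0438 RPKM), Gfi1b (0.0102 RPKM), Nrl (0.00945 RPKM) and Crx (0.00453 RPKM). The means of Gabra5 and Eomes rested most on the library labelled WDR11OE replicate 4, at 4.10 and 2.71 RPKM, and Npr3 was above Gabra5 in the other tumors except the library labelled WDR11OE replicate 3. All 10 means were below the median of 1.35 RPKM over all 22089 protein-coding genes, and below that of 5.03 RPKM over those tested. Of the 22089 genes, 47.3% had a lower mean than Gabra5, against 19.0% for Crx. Npr3 was above Impg2 in every tumor, from 0.554 to 1.39 RPKM against 0.0628 to 0.153 RPKM. The ranges of Gabra5, Npr3 and Eomes overlapped, as did those of Impg2, Rcvrn, Gfi1 and Otx2 and those of Gfi1b, Nrl and Crx. Overlap of ranges does not compare genes within a tumor. Impg2 was above Otx2 in every tumor, and Gfi1 was above Otx2 in every tumor except the library labelled WDR11OE replicate 4. The order within these sets was not tested. By group, Gabra5 was at 0.542 ± 0.201 RPKM (SD, n = 3) in the controls and 1.34 ± 1.89 RPKM (SD, n = 4) in the tumors labelled WDR11OE. Eomes was at 0.210 ± 0.334 RPKM (SD, n = 3) against 0.898 ± 1.27 RPKM (SD, n = 4), and Npr3 at 0.993 ± 0.358 RPKM (SD, n = 3) against 0.686 ± 0.153 RPKM (SD, n = 4).

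Markers of the other subgroups were measured for comparison. In the SHH panel, 4 of 5 genes were tested, 4 were lower and 0 were higher, with a median log2 fold change of −1.26, and each kept its call in all 15 alternatives. Hhip, a Hedgehog-binding membrane protein and the most abundant, was at 367, 381 and 438 CPM in the controls and at 203, 214, 253 and 217 CPM in the tumors labelled WDR11OE (log2 fold change −0.84 ± 0.10, edgeR adjusted p = 0.00151). Pdlim3 (log2 fold change −2.17), Eya1 (−1.30) and Sfrp1 (−1.22) were the others, and Atoh1, the factor that defines granule neuron progenitors, was at 0 counts in every tumor. In the WNT panel, 5 of 5 were tested, 1 was lower and 0 were higher, with a median of 0.03. Wif1 was the lower one (log2 fold change −0.28, edgeR adjusted p = 0.0338), and its call was lost without control replicate 3 (−0.19), without any 1 of the tumors labelled WDR11OE (−0.33 to −0.25) and with replicates 1 and 2 of these summed (−0.33). Gad1 of this panel, at 27.1, 59.1 and 209 CPM in control replicate 2 and the libraries labelled WDR11OE replicates 3 and 4, was highest in the tumors with Eomes. Tnc, Dkk2 and Emx2 were not called. In the Group 4 panel beyond the 10 markers, 5 of 5 genes were tested (Kcna1, Khdrbs2, Rbm24, Unc5d and Oas1a), 0 were called by edgeR and the median was −0.09. Mab21l2, the Group 3 gene beyond them, was at 0.186 to 0.493 CPM and was not called.

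Other cell types that a tumor chunk could hold were measured through marker lists. In the granule lineage list, 9 of 12 genes were tested, 0 were called and the median log2 fold change was 0.49. It summed to 57.6, 62.5 and 51.7 CPM in the controls and 53.4, 48.6, 64.9 and 108 CPM in the tumors labelled WDR11OE. Pax6, Meis1 and Zic1 were its most abundant genes, Atoh1 was at 0 and Barhl1 had counts in 1 tumor. The cortical neuron list had 5 of 6 genes tested, with a median of −1.06 and a sum, led by Bcl11b, of 68.2 to 121 CPM in the controls and 53.7 to 73.5 CPM in the tumors labelled WDR11OE. Astrocyte markers had 6 of 6 tested and 1 higher, S100b (0.94, edgeR adjusted p = 0.00359), with a median of 0.08. They summed to 407, 512 and 420.4 CPM in the controls and 333, 337, 513 and 757 CPM in the tumors labelled WDR11OE, led by Gja1. The granule lineage, astrocyte and microglia sums, like Eomes, were highest in control replicate 2 within the controls and in the libraries labelled WDR11OE replicates 3 and 4 within their group, and their part in the Eomes levels was not tested.

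Of the remaining lists, oligodendrocyte (6 of 6 tested, median −0.19, led by Mbp) and microglia and macrophage markers (7 of 7 tested, median −0.05, led by Tmem119) had 0 called genes by edgeR. Oligodendrocyte markers summed to 114 to 349 CPM over the 7 tumors. Microglia and macrophage markers summed to 118, 145 and 96.2 CPM in the controls and 73.6, 93.1, 107 and 143 CPM in the tumors labelled WDR11OE. Of endothelial markers 5 of 5 were tested and Cdh5 was lower (log2 fold change −1.01, edgeR adjusted p = 0.00238), with a list median of −0.23. They summed to 79.1, 106.5 and 96.8 CPM in the controls and 75.0, 66.6, 67.6 and 68.1 CPM in the tumors labelled WDR11OE, led by Kdr, and the groups did not overlap. Of choroid plexus markers 4 of 6 were tested, with a median of −1.33. They summed to 14.8, 8.89 and 5.02 CPM in the controls and 6.18, 6.17, 18.1 and 28.2 CPM in the tumors labelled WDR11OE. Aqp1, the most abundant, was at 3.83, 2.74 and 1.96 CPM in the controls and 4.05, 4.94, 15.2 and 25.9 CPM in the tumors labelled WDR11OE, and did not pass the test (log2 fold change 2.14 ± 0.71, edgeR adjusted p = 0.0525). Clic6 was lower (−1.33, edgeR adjusted p = 0.0233), a call lost without control replicate 1 (−1.30) or 2 (−1.12) or the library labelled WDR11OE replicate 2 (−1.30). Erythroid and megakaryocyte markers (8 of 11 tested, 0 called, median −1.10) were led by Hbb-b1 and summed to 1126 CPM in control replicate 1 against 27.1 to 380.3 CPM in the other tumors. Neutrophil markers (2 of 6 tested, 0 called, median 0.19, led by S100a9, with Ly6g at 0) summed to at most 5.31 CPM, and NK and T cell markers (0 of 6 tested, led by Gzma) to at most 0.788 CPM. In the skeletal muscle list 6 of 6 genes were higher, and each kept its call in all 15 alternatives. It summed to 1.97, 1.67 and 1.38 CPM in the controls and to 74.8, 40.6, 105.9 and 34.3 CPM in the tumors labelled WDR11OE, led by Myh4. Mb, at 0 counts in the controls, was at least 27.4-fold higher than a floor of 3 counts in the shallowest control. The median log2 fold change of the muscle list was 7.45, or 5.56 with Mb at that bound. The groups did not overlap in the muscle sum either, and the part of the muscle and endothelial sums in the levels of the 10 markers was not tested.

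OTX2 and CRX bind a short homeodomain sequence, which was looked for in promoters of the markers and of the photoreceptor lists. The motif TAATCC was sought on both strands in the 250 bases before each start in RefSeq promoters of GRCm38.p6, a later build than that of the counts. It was present in 6.25% of 32851 promoters, or for 7.21% of 27025 genes. Of the 49 genes of phototransduction and photoreceptor structure 34 were matched and 13 held it (38.2%), and of the 14 regulators 11 were matched and 2 held it. Promoters of 9 of the 10 markers were matched, and Rcvrn was not. Only Crx and 1 of the 4 Otx2 promoters held the motif. Both follow, 5′ to 3′ on the minus strand, Crx from chr7:15879956-15880205 and Otx2 from chr14:48665110-48665359, with the motif, here in its reverse form GGATTA, in capitals. A match is a description of letters and not of binding.
Crx: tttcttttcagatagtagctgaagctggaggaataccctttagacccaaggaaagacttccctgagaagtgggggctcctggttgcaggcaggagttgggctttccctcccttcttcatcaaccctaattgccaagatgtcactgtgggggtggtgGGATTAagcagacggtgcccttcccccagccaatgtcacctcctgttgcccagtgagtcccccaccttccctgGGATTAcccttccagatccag
Otx2: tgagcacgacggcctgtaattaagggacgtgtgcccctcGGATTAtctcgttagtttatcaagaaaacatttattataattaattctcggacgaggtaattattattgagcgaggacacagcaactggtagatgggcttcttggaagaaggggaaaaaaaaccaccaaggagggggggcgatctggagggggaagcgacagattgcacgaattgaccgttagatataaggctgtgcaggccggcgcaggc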

How the data were processed

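Per the labels, 7 tumors were sequenced, 4 labelled WDR11OE and 3 controls, and replicate numbers follow the order of deposit and pair no samples. Raw counts per gene were deposited without normalization; the authors obtained them with HT-seq after mapping to NCBIM37.67, with gene models from GENCODE. The submitters' processing notes name CASAVA 1.7, STAR, BWA and HTSeq. The methods describe stranded total RNA sequencing, whereas the labels name the TruSeq RNA Library Preparation Kit v2, and the strand setting is not given in the sources used here.

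From the counts, genes were kept by filterByExpr of edgeR 4.0.16 (minimum count 10), then TMM factors and a quasi-likelihood F-test (two-sided) were applied to 17389 genes in R 4.3.3, with p-values adjusted by Benjamini and Hochberg's method, with group as the only term. A gene was called at an adjusted p under 0.05. The standard error is the log2 fold change divided by the square root of F. CPM use total counts and TMM factors, and RPKM divide by the union of exons of GENCODE vM1 on NCBIM37, found for 33658 rows (97.3%). Single genes were also compared by a two-sided exact permutation test of log2 CPM (prior count 2) over the 35 assignments of the tumors, where the smallest p is 0.0286. Folds against groups at 0 used a floor of 3 counts, which covers counting error only. Replicates differed by more than sampling noise (chi-square per degree of freedom 22.6 to 245). Of the pairs within groups, the libraries labelled WDR11OE replicates 1 and 2 had the lowest value, 22.6, and the next was 38.2. These 2 libraries share a number in their titles that is not explained, and whether they are independent was not tested. The p-values measure the spread between libraries taken as independent, which is not known for these 2.

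The alternatives were limma 3.58.1 with voom, DESeq2 1.42.0, upper quartile scaling, library size only, no low-count filter, a minimum of 1 CPM in 3 or more tumors, each tumor left out, the libraries labelled WDR11OE replicates 1 and 2 summed, a loess trend on GC content (span 0.3) removed, and, for counts of calls, a 2-fold minimum with mean log2 CPM over 0, beside the adjusted p. The genes named are the 10 markers, the label checks, every gene of a list of up to 7 genes, and otherwise the 3 most abundant and the 2 lowest and 2 highest called. Any other gene was picked once its values had been seen. Some genes that the rule names, and calls among them, are not reported here. The markers and lists were chosen with earlier results of these data known, so no p was computed over a list. The exomes and survival data were not analysed here.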

Additional observations from a re-analysis of the deposited data

Results flagged for a closer look

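Of 41 values per tumor (the 10 markers, 5 label checks and 26 summed lists), 1 had a tumor labelled WDR11OE that stood apart from the other 3 by Dixon's ratio, against a computed critical value of 0.83, where chance flags about 1 in 20. The summed level of the NK and T cell markers was 0.788 CPM in the library labelled WDR11OE replicate 4 and 0.284, 0.237 and 0.216 CPM in replicates 1, 2 and 3 (ratio 0.880). The 6 genes of that list were all below 1 CPM in every tumor. Eomes and Gabra5, which were also highest in that library, did not pass this criterion. The control group, with 3 tumors, was too small for it.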

How the results depend on the processing

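Calls among the 10 markers were 0 lower and 0 higher under all 15 alternative fits and under stricter limits (also a 2-fold minimum with mean log2 CPM over 0), with 4 to 10 markers tested. Npr3 and Gfi1 kept a negative sign, and Eomes a positive one, wherever they were tested. Over tumors left out, Npr3 ranged from −0.735 to −0.213, Gfi1 from −0.743 to −0.374 and Eomes from 1.533 to 5.639. The range of Eomes lacks the fits without WDR11OE replicate 3 or 4, where it did not pass the filter. Eomes was highest in these libraries, so its sign was not examined without either of them. Impg2 had a log2 fold change of −0.166 with the GC trend removed and −0.064 and −0.005 without control replicate 3 and without WDR11OE replicate 4 (range over tumors left out −0.06 to 0.52). Gabra5 was at −0.212 by limma-voom and −0.409 without WDR11OE replicate 4 (range −0.41 to 1.65). The human WDR11 row (hWDR11) was at −0.439 by limma-voom, −0.005 without a filter and −0.178 with replicates 1 and 2 summed, and ranged from −0.371 to 0.37 over tumors left out, with −0.075, −0.028 and −0.054 without control replicates 1 and 2 and WDR11OE replicate 3. Mouse Wdr11 was at −0.02 with the GC trend removed. The cause of these turns was not tested.

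Over all genes, 2744 were lower and 3150 higher. The higher count was 2093 without a filter, 1629 with replicates 1 and 2 summed and 1882 with the GC trend removed, and the stricter limits left 600 lower and 410 higher. With tumors left out the lower count ranged from 2011 to 2868 and the higher from 1560 to 2986, with 2045, 1560 and 1657 higher without control replicate 2, WDR11OE replicate 1 and WDR11OE replicate 2. The fits with tumors left out or summed hold fewer samples. The cause of the change without a filter and with the GC trend removed was not tested. Log2 fold changes fell with exon GC content (Spearman correlation −0.34 across 17141 genes, which are not independent replicates). Of 750 list counts under alternatives, 675 were within 1.5 times the reported one. Crx, Nrl and Gfi1b had 4, 12 and 7 counts over all tumors, too few to show a difference at this depth.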
